A study of Mus musculus with 4 samples.

Results

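Antigen presentation genes were examined in mouse heart RNA: the class I heavy chains H2-D1 and H2-K1 and their partner B2m, the peptide supply genes Tap1, Tapbp and Psmb8, and the class II genes H2-Aa, H2-Ab1 and H2-Eb1. They were chosen by name, as the probe sets whose mapped gene symbol was on a list of 10 genes. Of the 10, 9 were found, each with 1 probe set, among 19505 named genes. Cd74, the 10th gene of the list, was not analysed here.

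The data came from hearts of outbred ICR (Jcl:ICR) mice. Pups received 5 μl of a viral vector preparation carrying Tbx6, a T-box transcription factor of the early mesoderm, or of phosphate-buffered saline (PBS), on postnatal day 1. Hearts were taken 7 or 30 days later. Each of the 4 groups has a single array: PBS at day 7, Tbx6 at day 7, PBS at day 30 and Tbx6 at day 30. The labels differ on the route, with a subcutaneous injection at the back in one field and the heart itself in others. PBS carried no vector, so effects of the vector and of Tbx6 cannot be told apart. The sources used here do not give the vector's promoter, how many hearts an RNA sample holds, or the sex and H2 haplotype of the mice. The groups have no replicates, so a difference between 2 arrays has a size but no test.

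Class I molecules are made by nearly all nucleated cells. They consist of a heavy chain and beta-2 microglobulin and display peptides cut by the proteasome and carried into the endoplasmic reticulum by the TAP transporter. Class II molecules are pairs of an alpha and a beta chain, made mainly by macrophages, dendritic cells and B cells, and they display peptides from material taken up by the cell. In the heart, resident macrophages carry much of the class II, and interferon-gamma is known to raise both classes.

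Values are log2 expression readings, so a difference of 1 is a change by a factor of 2. The median reading over all genes was 5.30 to 5.34 on the 4 arrays. The highest of the 23 background probe sets read 5.77 to 6.05, and a reading at or below the highest one of its own array is called at background. The Tbx6 probe set was at background on every array (3.57 to 4.14) and does not check the labels. The heart muscle genes Pln, Myh6, Tnnt2 and Actc1 were above background on all 4 arrays. On the PBS array of day 7 the airway gene Scgb1a1 read 12.89, against 2.94 to 4.43 on the others, and the brown fat gene Ucp1 read 11.92, against 5.69 to 8.34.

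Most of these genes lie together in the H2 region of chromosome 17, and B2m lies on chromosome 2. The start regions of 8 of the 9 genes were found in RefSeq's promoter table (GRCm38.p6, from the C57BL/6J strain). Sequences are shown for the class I genes H2-D1, H2-K1 and B2m, for H2-Aa, and for H2-Eb1 as a class II gene to set beside H2-Aa, although H2-Eb1 was at background. They are the 250 bases before the annotated start, 5′ to 3′ on the gene's strand, or a part of them. The capitals mark letters matched by 4 searches on both strands: AANNGAAA, the core bound by interferon regulatory factors, ATTGG, the inverted CCAAT of the class II Y box, GCAAC, part of the X box, and GGATTCC, the core of the NF-kappaB site of the class I enhancer. The windows of the class II genes H2-Aa (chr17:34287824-34288073, minus strand) and H2-Eb1 (chr17:34305617-34305866, plus strand) are set out first:
H2-Aa: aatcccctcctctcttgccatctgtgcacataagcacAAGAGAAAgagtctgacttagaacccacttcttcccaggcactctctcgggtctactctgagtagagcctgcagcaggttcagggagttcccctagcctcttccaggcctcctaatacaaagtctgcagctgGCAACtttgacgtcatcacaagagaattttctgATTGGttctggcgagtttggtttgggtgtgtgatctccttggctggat
H2-Eb1: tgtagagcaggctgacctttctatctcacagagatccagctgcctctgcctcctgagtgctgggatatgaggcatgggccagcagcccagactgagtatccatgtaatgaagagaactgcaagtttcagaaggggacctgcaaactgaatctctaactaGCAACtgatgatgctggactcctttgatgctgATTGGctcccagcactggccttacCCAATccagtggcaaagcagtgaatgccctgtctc
In both, GCAAC was followed on the same strand by ATTGG, with 28 bases between them in H2-Aa and 27 in H2-Eb1. Of all 32851 promoter windows of this length, 29.9% held GCAAC and 33.8% held ATTGG on either strand, and 0.131% (43 windows) held both in this order with 25 to 30 bases between. That range was set after the windows had been read.

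The class I heavy chain genes are compared over the stretch from the enhancer core to the interferon factor core, read for H2-D1 at chr17:35262925-35262951 (plus strand) and for the first listed start of H2-K1 at chr17:34000430-34000456 (minus strand):
H2-D1: GGATTCCccatctcctcagTTTCACTT
H2-K1: GGATTCCccatctccacagTTTCACTT
These stretches of 27 bases differed at 1 base. B2m (chr2:122147437-122147686, plus strand) held the interferon factor core and the inverted CCAAT in its window:
B2m: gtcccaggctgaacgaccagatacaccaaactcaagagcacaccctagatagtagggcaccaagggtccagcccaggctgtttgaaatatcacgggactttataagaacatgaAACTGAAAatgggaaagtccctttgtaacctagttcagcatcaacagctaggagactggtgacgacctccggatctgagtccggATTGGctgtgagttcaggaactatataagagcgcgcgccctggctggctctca
Of the 32851 windows 3.17% held GGATTCC and 21.3% held AANNGAAA. The windows of Tap1, Tapbp and Psmb8 held neither. A match is a description of the letters, not a measured site.

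**Figure D1:**
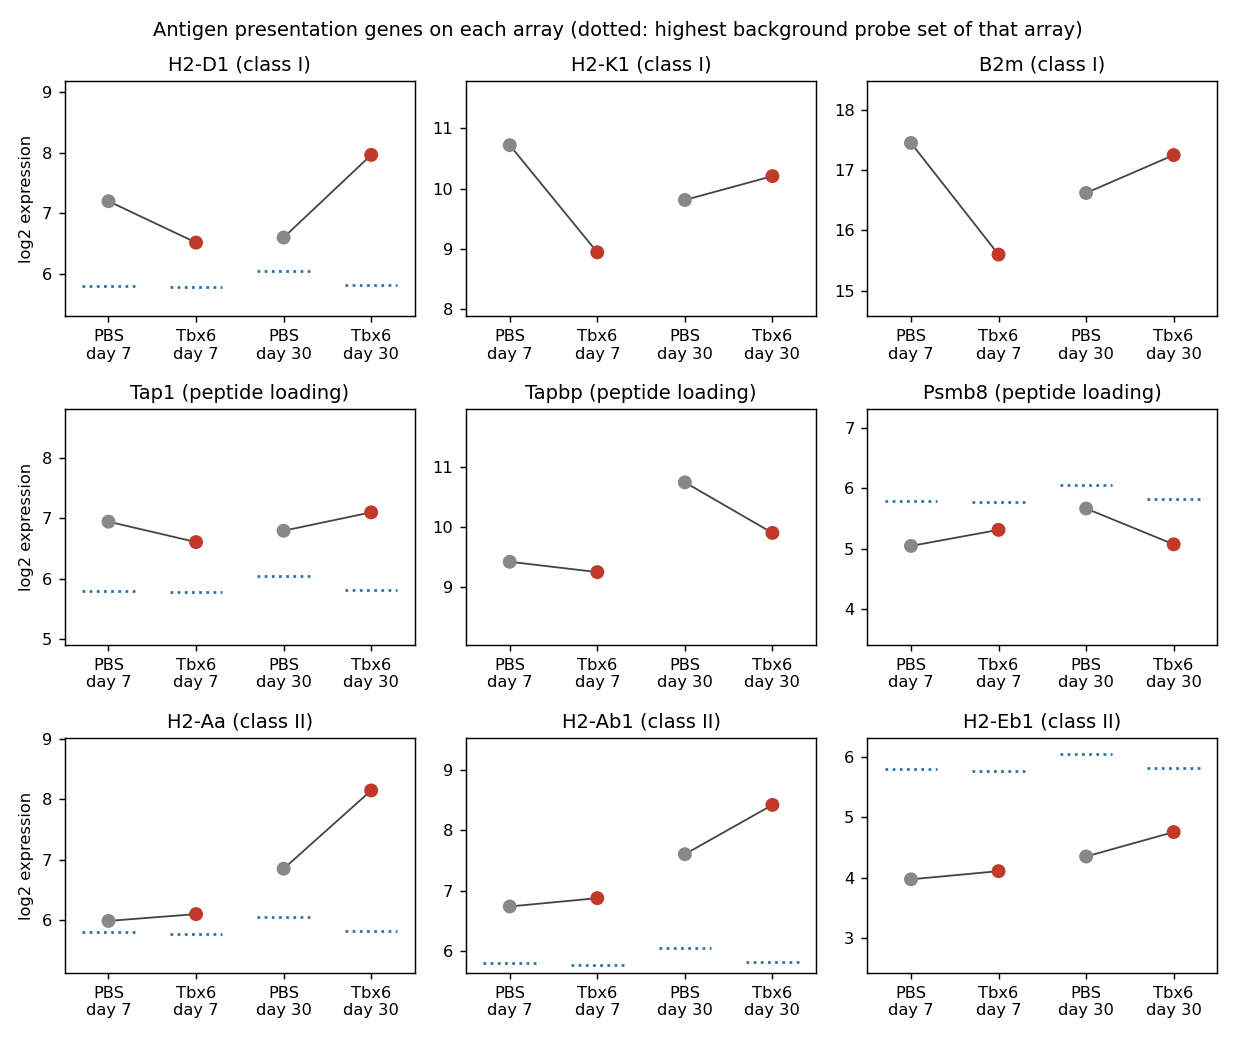
Log2 reading of each of the 9 genes on the 4 arrays (grey PBS, red Tbx6, 1 array each, a line joins the arrays of 1 day); all panels span the same number of log2 units, and dotted marks give the highest background probe set of each array. H2-K1 and B2m are highest on the PBS array of day 7 and lowest on the Tbx6 array of day 7, while H2-Aa and H2-Ab1 are highest on the Tbx6 array of day 30; Psmb8 and H2-Eb1 lie below the background marks throughout.

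The first comparison set day 30 against day 7, with the PBS and Tbx6 arrays as the pair of observations of each day. Age and time since injection cannot be told apart, as all pups were injected on postnatal day 1. The class II genes H2-Aa and H2-Ab1 rose from day 7 to day 30, 2.74-fold and 2.31-fold. Of the peptide loading genes Tapbp, which encodes tapasin, the protein that bridges class I to the TAP transporter, rose 1.98-fold. The class I genes H2-D1, H2-K1 and B2m did not pass the test. Of the 9 genes 7 passed the filter on dim genes and were tested, and 3 of these rose and 0 fell. Over all 9753 genes tested 26.3% changed with day, 14.2% upward and 12.1% downward. The median change of the 7 was 0.43 on the log2 scale, against -0.02 over all genes tested.

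H2-Aa encodes the alpha chain of the class II molecule I-A. At day 7 it read 5.98 on the PBS array and 6.10 on the Tbx6 array, and at day 30 it read 6.85 and 8.14. Both day 30 readings were above both day 7 readings, and the day 7 readings lay just above background. The change was 1.46 (SE 0.32, limma additive model, Benjamini-Hochberg adjusted p = 0.0115). H2-Ab1, the beta chain of the same molecule, read 6.74 and 6.87 at day 7 and 7.60 and 8.42 at day 30, in the order PBS and Tbx6. Its days did not overlap either, and the change was 1.21 (SE 0.27, limma adjusted p = 0.0128). Non-overlap of this kind, with both day 30 readings above, held for 32.7% of all genes tested. H2-Eb1, the beta chain of I-E, read 3.98, 4.11, 4.35 and 4.76 on the arrays in the same order. All 4 readings were at background, so they measure no change. In the wider class II list 9 genes were measured, and 7 of them, H2-Eb1 included, were at background on every array. What is said of class II therefore rests on H2-Aa and H2-Ab1.

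The size of the class II change depended on the Tbx6 array of day 30, which had the highest reading of both genes. Between the PBS arrays the difference was 0.86 for H2-Aa and 0.87 for H2-Ab1, and between the Tbx6 arrays it was 2.05 and 1.54. With that array left out and day as the only term, H2-Aa changed by 0.81 (limma adjusted p = 0.115) and H2-Ab1 by 0.80 (limma adjusted p = 0.12). Without the PBS array of day 7 the adjusted p by limma was 0.0681 for H2-Aa and 0.0599 for H2-Ab1. Without the Tbx6 array of day 7 it was 0.0522 for H2-Aa and 0.0397 for H2-Ab1. Without the PBS array of day 30 both passed, with changes of 2.10 (limma adjusted p = 0.00666) for H2-Aa and 1.61 (limma adjusted p = 0.0164) for H2-Ab1. The direction was the same in every one of these fits.

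Tapbp at day 7 read 9.42 on the PBS array and 9.25 on the Tbx6 array, and at day 30 it read 10.74 and 9.90. Here the PBS array of day 30 was the highest, in contrast to the class II genes. The change was 0.98 (SE 0.27, limma adjusted p = 0.028). It lost the call without a filter on dim genes (limma adjusted p = 0.0526) and with day as the only term (limma adjusted p = 0.0529). Without the PBS array of day 30 it was 0.56 (limma adjusted p = 0.238), without the Tbx6 array of day 30 it passed (limma adjusted p = 0.0276), and without the PBS or the Tbx6 array of day 7 the limma adjusted p was 0.0754 and 0.121. Tap1, a subunit of the peptide transporter, varied least of the tested genes, at 6.94, 6.60, 6.79 and 7.10 in the order PBS and Tbx6 at day 7, PBS and Tbx6 at day 30. Its day change was 0.17 (SE 0.27, limma adjusted p = 0.667). Psmb8, a catalytic subunit of the immunoproteasome, read 5.05, 5.31, 5.67 and 5.07 in that order, all at background.

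For the class I genes the arrays of a day differed more from each other than the days did. B2m, which encodes the light chain shared by all class I molecules, read 17.45 on the PBS array and 15.60 on the Tbx6 array of day 7, and 16.62 and 17.25 on those of day 30. Its day change was 0.41 (SE 0.49, limma adjusted p = 0.571). H2-K1 read 10.72 and 8.95 at day 7 and 9.81 and 10.21 at day 30, with a day change of 0.18 (SE 0.44, limma adjusted p = 0.8). H2-D1 read 7.20 and 6.51 at day 7 and 6.60 and 7.97 at day 30, with a day change of 0.43 (SE 0.43, limma adjusted p = 0.497). The ranges of the days overlapped for all 3 genes. For B2m and H2-K1 the PBS array of day 7 was the highest and the Tbx6 array of day 7 the lowest of the 4, as for 3.83% of all genes tested. H2-D1 was highest on the Tbx6 array of day 30, as were H2-Aa, H2-Ab1 and Tap1 and 26% of all genes tested. The direction differed between injections: from day 7 to day 30 the PBS arrays differed by -0.83 for B2m, -0.91 for H2-K1 and -0.60 for H2-D1, and the Tbx6 arrays by 1.65, 1.26 and 1.45. The result therefore rested on single arrays. Without the PBS array of day 7, B2m changed by 1.33 (limma adjusted p = 0.0245) and H2-K1 by 1.06 (limma adjusted p = 0.0382). Without the Tbx6 array of day 7 the changes were -0.51 (limma adjusted p = 0.308) and -0.71 (limma adjusted p = 0.129), and without the Tbx6 array of day 30 H2-D1 changed by -0.26 (limma adjusted p = 0.679) and H2-K1 by -0.02 (limma adjusted p = 0.988). Without the PBS array of day 30 none of the 3 passed.

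**Figure D2:**
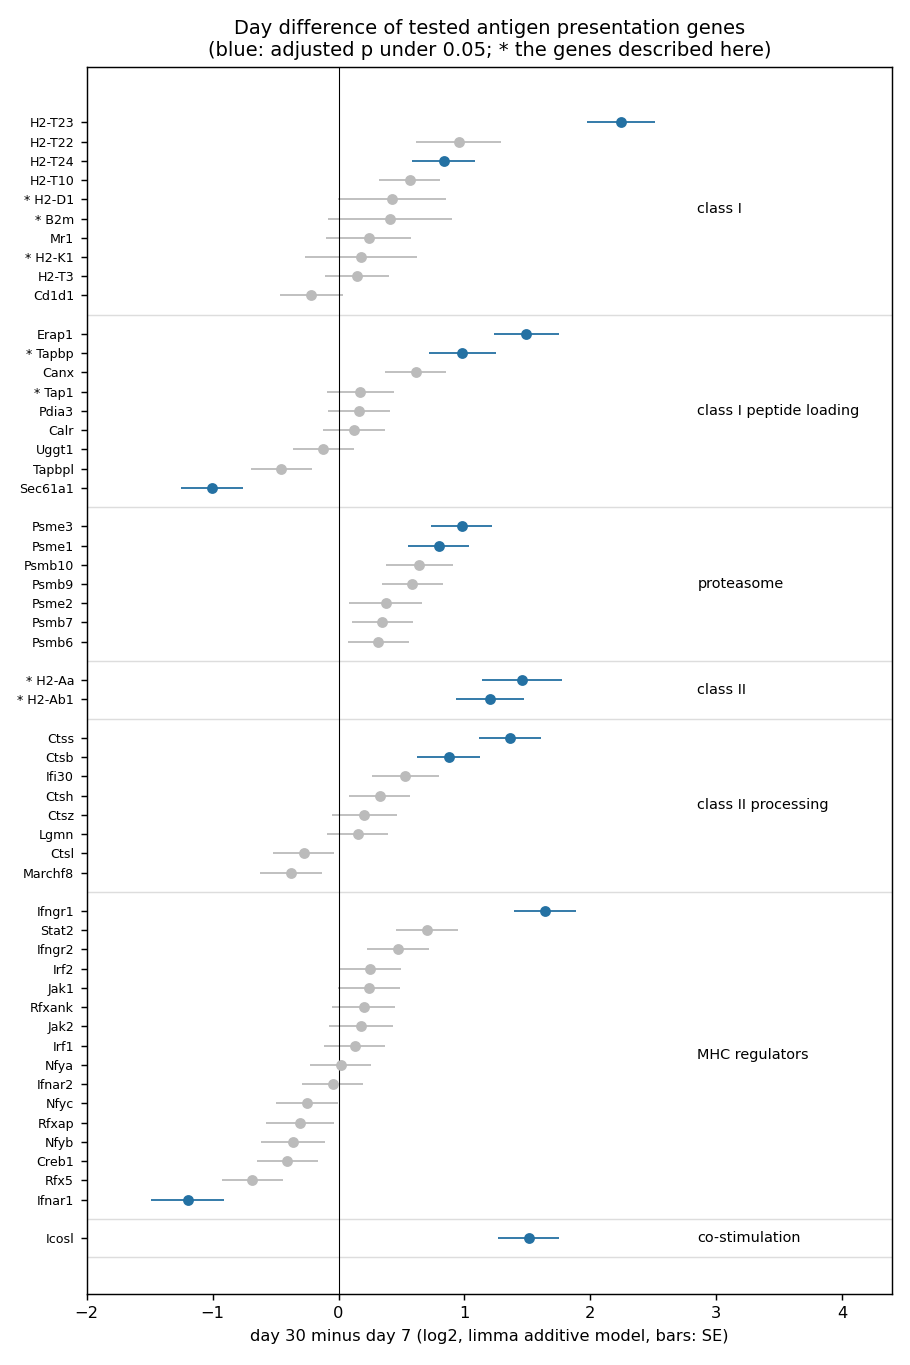
Day 30 minus day 7 for every tested gene of the antigen presentation lists, on the log2 scale, with bars for the standard error of limma's additive model over 4 arrays (blue, adjusted p under 0.05; asterisk, the genes described in full). H2-Aa and H2-Ab1 at 1.46 and 1.21 and Tapbp at 0.98 passed, and H2-D1, H2-K1, B2m and Tap1 lie between 0.17 and 0.43 with bars that reach near or past 0.

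The wider pathway held 75 further genes in 7 lists, of which 68 were measured and 46 tested. Of these 9 rose and 2 fell between the days, beside 14.2% and 12.1% of all genes tested, with a median change of 0.24 against -0.02 over all. The counts of the single lists below stand beside the same shares, and with few tested genes in a list they set no list apart from other genes. In the class I list H2-T23, which encodes the non-classical molecule Qa-1, was at background on both day 7 arrays and rose by at least 1.77 (limma adjusted p = 0.000742 on the deposited values). H2-T24 rose by 0.83 (SE 0.25, limma adjusted p = 0.0419), and H2-T22, above background on 1 array only, did not pass (limma adjusted p = 0.0683, a difference of 0.27 with readings raised to background). H2 class I genes have near-identical copies and many alleles, so which of them a probe set read is uncertain, also for H2-D1 and H2-K1. In the loading list Erap1, the aminopeptidase that trims class I peptides in the endoplasmic reticulum, rose by 1.49 (SE 0.26, limma adjusted p = 0.00435), while Sec61a1, of the protein-conducting channel, fell by 1.01 (SE 0.25, limma adjusted p = 0.0182). The tested members of the proteasome list numbered 7, of which 2 rose. These were Psme1, a subunit of the interferon-inducible activator PA28 (0.79, limma adjusted p = 0.0423), and Psme3, of the nuclear activator PA28-gamma (0.98, limma adjusted p = 0.0193). The inducible subunit gene Psmb10 was at 0.64 (limma adjusted p = 0.112), and Psmb9, which is among the 7, was at background on every array.

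Of the genes that prepare peptides for class II in the lysosome, 2 of 8 tested rose. Ctss, a protease that cleaves the invariant chain, rose by 1.36 (SE 0.25, limma adjusted p = 0.00511). Ctsb, a lysosomal cathepsin, rose by 0.87 (SE 0.25, limma adjusted p = 0.0332). Ifi30, a lysosomal thiol reductase, was at 0.53 (SE 0.26, limma adjusted p = 0.174). Among the regulators Ifngr1, a chain of the interferon-gamma receptor, rose by 1.64 (SE 0.25, limma adjusted p = 0.00213). Ifnar1, a chain of the type I interferon receptor, fell by 1.20 (SE 0.29, limma adjusted p = 0.0175). Ciita, the master regulator of class II, was at background on all 4 arrays, between 3.76 and 4.42. Stat2, which carries the type I interferon signal, was at 0.70 (SE 0.24, limma adjusted p = 0.0646). Rfx5, which binds the X box, did not pass (limma adjusted p = 0.0701), with a reading at background on the PBS array of day 30 and a difference of -0.58 with that reading raised to background. Irf1 was at 0.13 (SE 0.24, limma adjusted p = 0.728). The count of 11 changed genes was 7 without the Tbx6 array of day 7, 4 without the PBS array of day 30 and 6 without the Tbx6 array of day 30, with day as the only term. Over all genes the count of 2562 was 1402 and 1248 without the PBS and the Tbx6 array of day 30.

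Macrophage markers moved in the same direction as class II. Of 15 listed, 14 were measured, 12 tested, and 8 rose between the days and 0 fell, with a median change of 1.61. Over all genes tested 14.2% rose and 12.1% fell. Lyve1, a marker of only some resident heart macrophages, rose by 1.92 (SE 0.24, limma adjusted p = 0.000988). The CSF1 receptor gene Csf1r rose by 1.69 (SE 0.26, limma adjusted p = 0.00221). The mannose receptor gene Mrc1 rose by 1.54 (SE 0.25, limma adjusted p = 0.00296). The log2 of the summed level of the list was 11.37 and 11.49 at day 7 and 12.88 and 13.17 at day 30, in the order PBS and Tbx6. Adgre1, above background on all 4 arrays, did not pass (0.29, SE 0.28, limma adjusted p = 0.483) and differed by -0.14 between the PBS arrays. Mertk, Fcgr1 and Cd14 did not pass either. C1qc and Cd163 were at background on both day 7 arrays, and C1qa on the Tbx6 array of day 7. With readings raised to background their changes were 2.42, 1.49 and 1.72. The markers at background on every array were Cd14, Ccr2 and Cx3cr1. Between injections at day 30 H2-Aa (1.30) and H2-Ab1 (0.82) were higher after Tbx6. The 12 tested markers had a median difference of 0.31, against 0.01 over all genes tested. Cd14 is among the 12 although it was at background. The markers ranged from 0.05 for Csf1r and 0.13 for Cd163 through 0.70 for C1qb and 0.73 for Mertk to 1.17 for Fcgr1. The PBS reading of Fcgr1 was at background. Between injections at day 7 the 12 markers had a median difference of -0.16, against -0.02 over all genes tested. H2-Aa and H2-Ab1 were at 0.11 and 0.14 on that day. In RNA of whole hearts more cells of a type and more RNA per cell cannot be told apart. The part of macrophage content in the class II change was not tested.

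The second comparison asked how the heart differed after the Tbx6 vector. At day 7 the class I genes B2m, H2-K1 and H2-D1 were lower after Tbx6 than after PBS, by factors of 3.60, 3.42 and 1.61. At day 30 the order was the opposite, with H2-D1 higher after Tbx6 by a factor of 2.58, B2m by 1.55 and H2-K1 by 1.32. Over the 10 tested genes of the wider class I list, which holds these genes, the median log2 difference was -0.13 at day 7 and 0.31 at day 30. The class II genes H2-Aa and H2-Ab1 hardly differed at day 7. At day 30 they were higher after Tbx6, H2-Aa by a factor of 2.46 and H2-Ab1 by 1.76. By the size rule of 1.5-fold, 0 of the 7 tested genes were higher and 3 lower at day 7, where 15.6% of all genes tested passed the rule, 7.23% higher and 8.41% lower. At day 30 4 were higher and 1 was lower, where 13.2% of all passed, 7.13% higher and 6.06% lower. B2m and H2-D1 passed on both days in opposite directions, lower and then higher, as did 1.02% of all genes tested. With a rule of 2-fold the count at day 30 was 2.

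**Figure D3:**
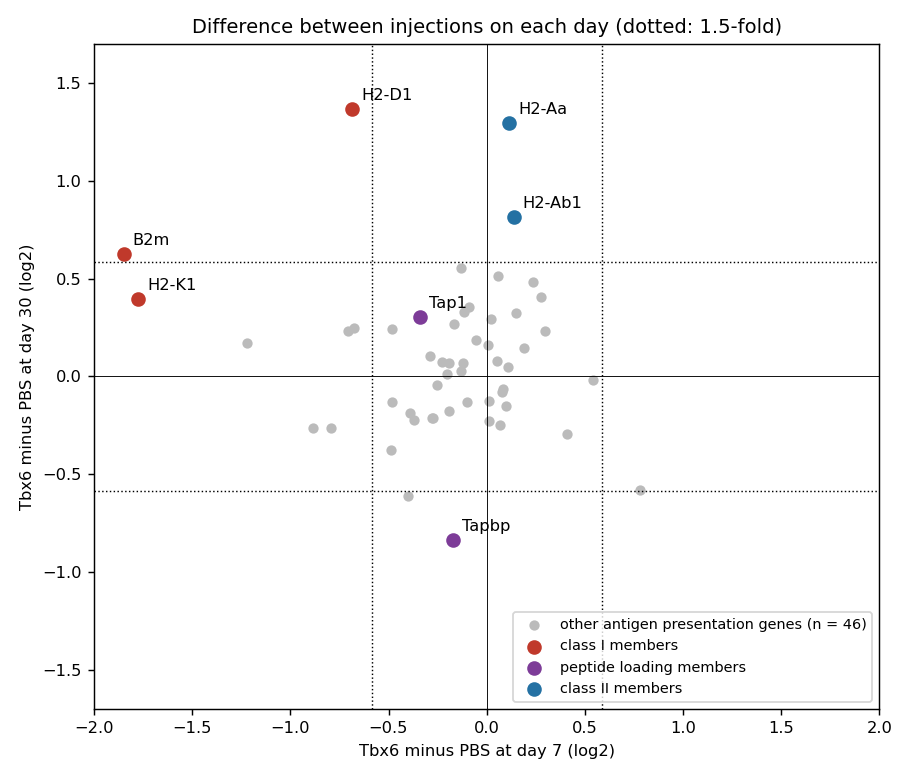
Tbx6 minus PBS at day 7 (horizontal) against Tbx6 minus PBS at day 30 (vertical), log2 scale, 1 array on each side; coloured points are the 7 tested genes, grey points 46 other antigen presentation genes, and dotted lines mark 1.5-fold. B2m, H2-K1 and H2-D1 lie at upper left, at -1.85, -1.77 and -0.69 on day 7 and above 0 on day 30, and H2-Aa and H2-Ab1 lie near 0 on day 7 and at 1.30 and 0.82 on day 30.

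In log2 units the day 7 differences of -1.85 for B2m and -1.77 for H2-K1 were matched or passed, in the same direction, by 0.174% and 0.215% of all genes tested. For H2-D1 at -0.69 that share was 5.59%. At day 30 the differences were 1.37 for H2-D1, 1.30 for H2-Aa, 0.82 for H2-Ab1 and 0.63 for B2m, with shares of 0.256%, 0.297%, 2.68% and 5.84%. Tapbp was the exception in direction, at -0.17 on day 7 and -0.84 on day 30. Tap1 was at -0.34 and 0.30, inside the size rule on both days. Both pairs of readings of Psmb8 and H2-Eb1 were at background, so no difference is given.

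By limma's additive model 0 of the 7 genes passed for injection (0% of all 9753 genes), and 0 of the 7 had an unadjusted p under 0.05, against 421 genes or 4.32% overall. The nearest was H2-Aa, at 0.70 (SE 0.32, unadjusted p = 0.0545, limma adjusted p = 1). For genes whose difference turned between the days the additive model averages opposite values, and its standard error holds the disagreement. The averages were -0.61 (SE 0.49) for B2m, -0.69 (SE 0.44) for H2-K1 and 0.34 (SE 0.43) for H2-D1. The change of the injection difference from day 7 to day 30 was 2.48 for B2m, 2.17 for H2-K1 and 2.05 for H2-D1, and 1.18 for H2-Aa. With 1 array per group this change has no test.

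H2-K1 and B2m placed the arrays in 1 order, from highest to lowest PBS at day 7, Tbx6 at day 30, PBS at day 30 and Tbx6 at day 7. This order held for 1.93% of all genes tested, and of the 46 further pathway genes for Mr1, which encodes a class I-like molecule that presents vitamin B metabolites. Mr1 differed by -1.22 between injections at day 7 and by 0.17 at day 30. H2-D1 and Tap1 had the same order with the first pair of places exchanged, as did Psme2 and Jak2 and 2.69% of all genes. The class II genes had the order Tbx6 at day 30, PBS at day 30, Tbx6 at day 7 and PBS at day 7, which held for 8.32% of all genes and for 4 of the 46 further pathway genes, H2-T10, Canx, Ctsh and Ifngr2. Of the 46 further genes 6 passed the size rule at day 7, beside 15.6% of all genes tested. H2-T22 was higher at 0.78, with both readings at background, and Mr1, Ifi30 (-0.89), Erap1 (-0.79), Psme2 (-0.71) and Ifnar1 (-0.67) were lower. At day 30 only Tapbpl passed, beside 13.2% of all, at -0.61, with both readings at background. Their median differences were -0.12 at day 7 and 0.04 at day 30.

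Fat and airway genes differed between the same arrays. Of 7 listed adipocyte markers 6 were measured, and the log2 of their summed level was 12.08 on the PBS and 8.58 on the Tbx6 array of day 7, and 8.78 and 10.73 on those of day 30. Adipoq, the adiponectin gene, differed by -1.91 at day 7 and 2.33 at day 30, and the brown fat gene Ucp1 by -4.32 at day 7. Plin1 and Lep were at background on every array. The airway list of 5 genes had 13.24 on the PBS array of day 7 and 6.67 to 7.39 on the others, with Sftpc and Sftpb at background on every array. Macrophage markers had a median difference of -0.16 at day 7 and 0.31 at day 30 over the 12 tested. The part of these cells in the class I differences was not tested.

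**Figure D4:**
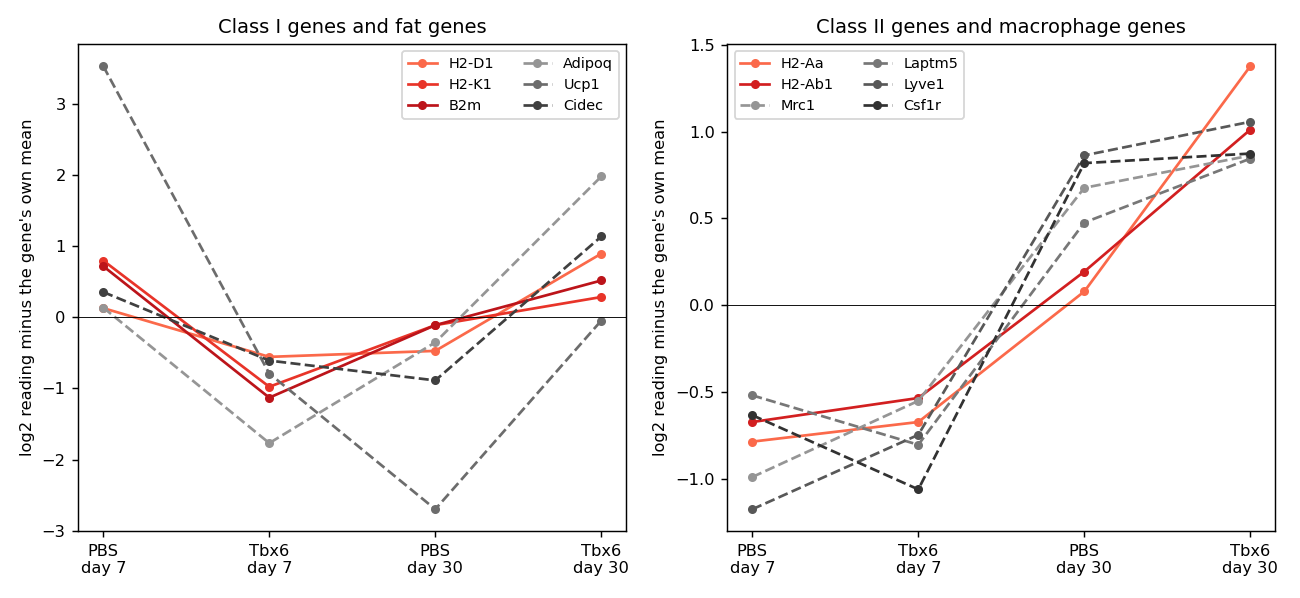
Log2 reading of each gene minus its own mean over the 4 arrays, for class I genes with fat genes (left) and for class II genes with macrophage genes (right); solid red lines are antigen presentation genes, dashed grey lines the markers, and lines only join the readings of 1 gene. H2-D1, H2-K1, B2m and Adipoq are all lower on the Tbx6 array of day 7 than on the PBS array and higher on the Tbx6 array of day 30 than on the PBS array, and macrophage genes are higher on both arrays of day 30.

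Other genes with like patterns were ranked by the root mean square distance of their centred readings over the 4 arrays, among 7877 genes above background on all 4. Restricting the ranks to these genes, and the class II profile to H2-Aa and H2-Ab1, was chosen after seeing the data. For class II the nearest were Hgsnat, a lysosomal enzyme gene (distance 0.08 log2 units), Pparg, the nuclear receptor of fat cell formation (0.09), Trip10 (0.10), Crebrf (0.14), Ggct (0.16) and the potassium channel gene Kcnj3 (0.17), while H2-Aa and H2-Ab1 each lay 0.11 from their common profile. For class I they were the immediate-early matrix gene Ccn1 (0.13), Rnf181 (0.14), the kinase gene Sgk1 (0.15), Prkar2b (0.16), Zfp512 (0.17) and Fnip2 (0.18), while B2m lay 0.16, H2-K1 0.20 and H2-D1 0.34 from theirs. With all tested genes ranked and H2-Eb1 in the profile, the 3 nearest to class II were Gadd45a, Foxo3 and Crebrf (0.03, 0.04 and 0.07). That profile described its own genes less closely (H2-Ab1 0.07, H2-Aa 0.26, H2-Eb1 0.31) and rests in part on readings at background, those of Foxo3 on 3 arrays among them. With all tested genes ranked, the 6 nearest to class I were Vps50 (0.08), Ccn1 (0.13), Tmem108 (0.13), Rnf181 (0.14), Sgk1 (0.15) and Prkar2b (0.16). Vps50 and Tmem108 were at background on the Tbx6 array of day 7 and the PBS array of day 30. With 4 readings a gene, a small distance is a description and no more.

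Other genes of the H2 region moved in both directions. Between Tapbp and H2-D1, 73 named genes outside the antigen presentation lists were measured and 34 tested, of which 5 rose and 2 fell with day, C4b among the former with 1 array above background. That is beside 14.2% and 12.1% over all genes, and their median change was -0.01. Pfdn6, of the prefoldin chaperone, rose by 1.33 (SE 0.29, limma adjusted p = 0.012), and Clic1, a chloride channel protein gene, fell to 0.355 of its day 7 level (limma adjusted p = 0.00608). Brd2, a bromodomain gene that lies among the class II genes, fell by 0.94 (SE 0.25, limma adjusted p = 0.0245). Between injections, 1 of the 34 was higher and 3 lower by the size rule at day 7, and 2 were higher and 4 lower at day 30.

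**Figure D5:**
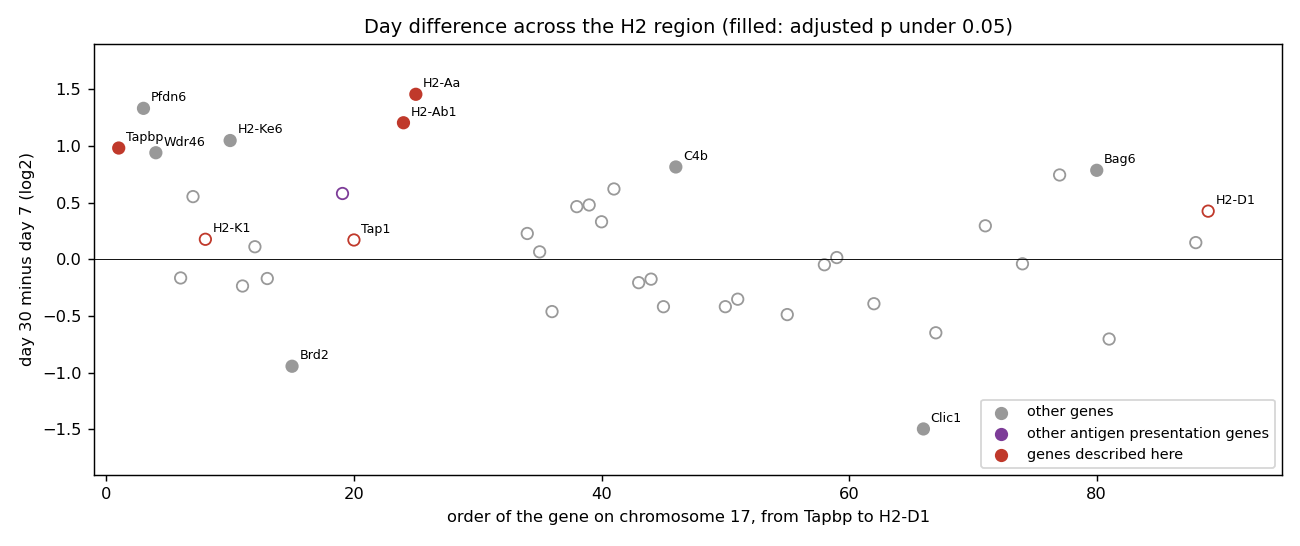
Day 30 minus day 7 on the log2 scale for tested genes of the H2 region, in their order on chromosome 17 (distances not to scale); filled points have a limma adjusted p under 0.05. H2-Ab1 and H2-Aa stand at 1.21 and 1.46 and the other named genes range from Clic1, the lowest, to Pfdn6 at 1.33.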

How the data were processed

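Total RNA of hearts was hybridised to mouse Clariom S arrays. Per the labels, the deposited log2 values were made with SST-RMA in Affymetrix Expression Console 1.4; the log base is not written there and base 2 was assumed from how far the values reach. Genes were named from the platform annotation, and for a gene with several probe sets the one with the highest mean was kept. Dim genes, with a mean under the median of all genes (5.30), were left out, which left 9753 genes. In R 4.3.3, limma 3.58.1 fitted an additive model of injection and day to the 4 arrays (two-sided tests after eBayes, Benjamini-Hochberg adjustment over 9753 genes, threshold 0.05). It leaves 1 residual degree of freedom beside 7.46 borrowed from other genes, so a gene's SE is largely a pooled value. Nothing says that arrays came from separate animals or litters, so p-values measure only the spread between these arrays. On simulated data with independent noise, the fit called 66 of 100 genes with a true change of 1 log2 unit. It called 100 of 100 at 2 units and 18 of 9553 unchanged genes. The simulation held no injection effect that differs between days, so it does not check the p-values of these arrays.

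The 10 genes and the lists were chosen with earlier results of these data known. The text names every listed gene of the 10 that was measured, pathway genes above background or with the largest changes in their list, up to 4 markers per cell type by mean reading with any at background, and the 6 genes nearest to each pattern (all tested genes, with H2-Eb1 in the class II profile), of which 3 are printed for class II because that profile rests in part on background. Regional neighbours, Psmb9, Ciita, Adgre1, C1qa, C1qb, C1qc, Cd163, Mertk and Fcgr1 were named after their values were seen. Promoter motifs were searched with Python 3.11.15, and figures were drawn with matplotlib 3.10.9. The number of arrays limits the precision.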

Additional observations from a re-analysis of the deposited data

Results flagged for a closer look

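For B2m, H2-K1, H2-D1 and Tap1 the Tbx6 array was below the PBS array at day 7 and above it at day 30. The injection difference at day 30 minus that at day 7 was 2.48 for B2m, 2.17 for H2-K1, 2.05 for H2-D1 and 0.64 for Tap1, on the log2 scale. Changes at least as large in the same direction were found for 0.154%, 0.267%, 0.338% and 13.5% of all genes tested, in that order. Each change rests on 4 single arrays, and the difference between the days was not tested. A lower reading after Tbx6 at day 7 and a higher one at day 30, both by at least 1.5-fold, was seen for B2m and H2-D1 and for 1.02% of all genes tested.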

How the results depend on the processing

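The alternatives were quantile normalisation, median centring, no filter, the mean of probe sets, a variance trend and day as the only term. They left 117 values of single genes in the same direction and, where tested, on the same side of the threshold. Tapbp lost its call under 2 of them. Much of that count was fixed in advance, so it says little about robustness. Each gene has 1 probe set, so the mean of probe sets returns the same readings. A variance trend, no filter and day as the only term cannot alter the size of a change. The count also holds differences between 2 arrays, which have no test. Under the 6 settings the limma adjusted p for day was 0.00544 to 0.0353 for H2-Aa and 0.00698 to 0.0251 for H2-Ab1. For injection, 0 genes passed by limma under the first 5 of them, the last having no injection term. With a 2-fold rule 2 of the 7 genes differed at day 30. Leaving out each array in turn, with day as the only term, was added after seeing the data. It gave 1 to 2 of the 7 genes, 4 to 9 of the wider lists and 1248 to 2067 of all genes as changed with day. The day change then ranged from -0.51 to 1.33 for B2m, -0.71 to 1.06 for H2-K1 and -0.26 to 1.11 for H2-D1. The lone array of a day is assumed there to vary like the pair of the other day, and the smaller number of arrays is part of the setting. No paired analysis was possible because each group has 1 array and the labels carry no replicate numbers. Readings near background, as for H2-Aa at day 7, limit how low a level can be seen.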

Other observations

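Markers of other presenting cells and of lymphocytes were mostly at background. All 4 measured B cell markers and 6 of 8 dendritic cell markers, Itgax, Flt3 and Zbtb46 among them, were at background on all arrays, as were 6 of 7 T and NK cell markers. The exception among the latter was Cd4, at 6.29 to 6.54, with a day change of 0.02 (SE 0.24, limma adjusted p = 0.971). Ccr7, a chemokine receptor gene of migrating dendritic cells, read 6.16 to 6.70 and changed by -0.30 (SE 0.24, limma adjusted p = 0.401). Clec10a, a lectin gene of dendritic cells and macrophages, did not exceed background at day 7 and rose by at least 0.77 (limma adjusted p = 0.0140 on the deposited values). Of the co-stimulation genes, 5 of 7 were at background on every array. Icosl, the ligand of the T cell receptor ICOS, rose by 1.51 (SE 0.24, limma adjusted p = 0.00315), from 6.77 and 6.38 at day 7 to 8.18 and 7.995 at day 30, in the order PBS and Tbx6. Of the markers of endothelium, whose cells also carry class I, 3 of 6 tested fell and 0 rose, beside 12.1% and 14.2% of all genes tested. Kdr, the VEGF receptor gene, fell by 1.03 (SE 0.24, limma adjusted p = 0.0156).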
